A study of Mus musculus with 9 samples.

Results

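The genes described here encode collagens, laminins and the other main proteins of basement membranes and the interstitial matrix of the mouse cortex. They were chosen by name alone, as the rows of both deposited tables whose gene name is a collagen chain, a laminin chain, Nid1 or Nid2, Fn1, Sparc, Fbn1 or Fbn2, Fbln1, Fbln2, Fbln5 or Fbln7, Hspg2 or Agrn. The rule found 67 genes among the 22496 of the ShhN IUE table and the 23624 of the SmoM2 table, and all 67 are in both. RNA was measured by bulk sequencing of cortex dissected at postnatal day 0 (P0) from mice of a mixed C57BL/6J, 129S6 and CD1 background. The 9 libraries comprise 3 from wild-type littermates, 3 from brains given in utero electroporation of ShhN (ShhN IUE), the secreted signalling fragment of Sonic hedgehog, and 3 from hGFAP-Cre, SmoM2 f/+ mice. In the last, Cre driven by the human GFAP promoter, which is active in radial glia, switches on SmoM2, an activated form of the hedgehog signal transducer Smoothened, from 1 conditional allele. The labels name no electroporated control that lacks ShhN, so the effects of the procedure and of ShhN cannot be told apart. The same 3 wild-type libraries serve both comparisons, and the series title points to the question they ask: what SHH signalling does to cortical neural stem cells.

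Basement membranes are sheets in which a laminin network and a collagen IV network are joined by nidogens and the heparan sulfate proteoglycans perlecan (Hspg2) and agrin (Agrn). In the cortex they surround the blood vessels and form the pial surface, where the endfeet of radial glia attach. Fibrillar collagens and collagen VI are made mainly by fibroblasts, in the brain chiefly those of the meninges and the vessel walls, whereas a few collagens are made by neurons or glia.

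Depth was 18610507 to 21694348 counts for wild type, 15376071 to 19604672 for ShhN IUE and 23625702 to 26923127 for SmoM2. Of the genes that the interventions concern, Shh was counted 51, 52 and 455 times in replicates 1, 2 and 3 of ShhN IUE against 31 to 62 times in wild type, and Smo had 1693 to 2293 counts in SmoM2 against 357 to 580 in wild type. Counts of both may include reads of the introduced sequences, which was not tested. The labelled tissue was checked against 10 markers of cortical pyramidal neurons. Their summed level was 1721 to 2856 CPM (counts per 1e+06) over all libraries. Of the 10, 0 were without counts when the libraries of a table were summed. The check shows that such neurons were present, but not whether tissue beside the cortex was included.

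In wild-type cortex the most abundant RNAs of these genes per transcript length were those of agrin and of the vessel and pial basement membrane. In the SmoM2 table, Agrn had 65.8, 61.7 and 54.7 FPKM (fragments per kilobase of gene and 1e+06 mapped fragments) in wild-type libraries 1, 2 and 3. The next levels were Col4a1 at 36.4 ± 14.2 FPKM (SD, n = 3), Sparc at 35.8 ± 14.0 and Col4a2 at 26.7 ± 8.32. Sparc encodes a small collagen-binding glycoprotein, and Col4a1 and Col4a2 encode the collagen IV chains found in nearly all basement membranes. Agrn stood above the other genes in every wild-type library, whereas the ranges of Col4a1, Sparc and Col4a2 overlapped. Fibronectin (Fn1, 13.8 ± 3.54 FPKM), the laminin gamma 1 chain (Lamc1, 10.4 ± 1.56) and nidogen 1 (Nid1, 10.4 ± 4.50) followed, again with overlapping ranges. The same 4 genes led in ShhN IUE, and in SmoM2, where Sparc reached 72.6 ± 5.69 FPKM beside Agrn at 73.2 ± 2.99. Together the 67 genes took 0.255% to 0.594% of the counts of a library.

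**Figure D1:**
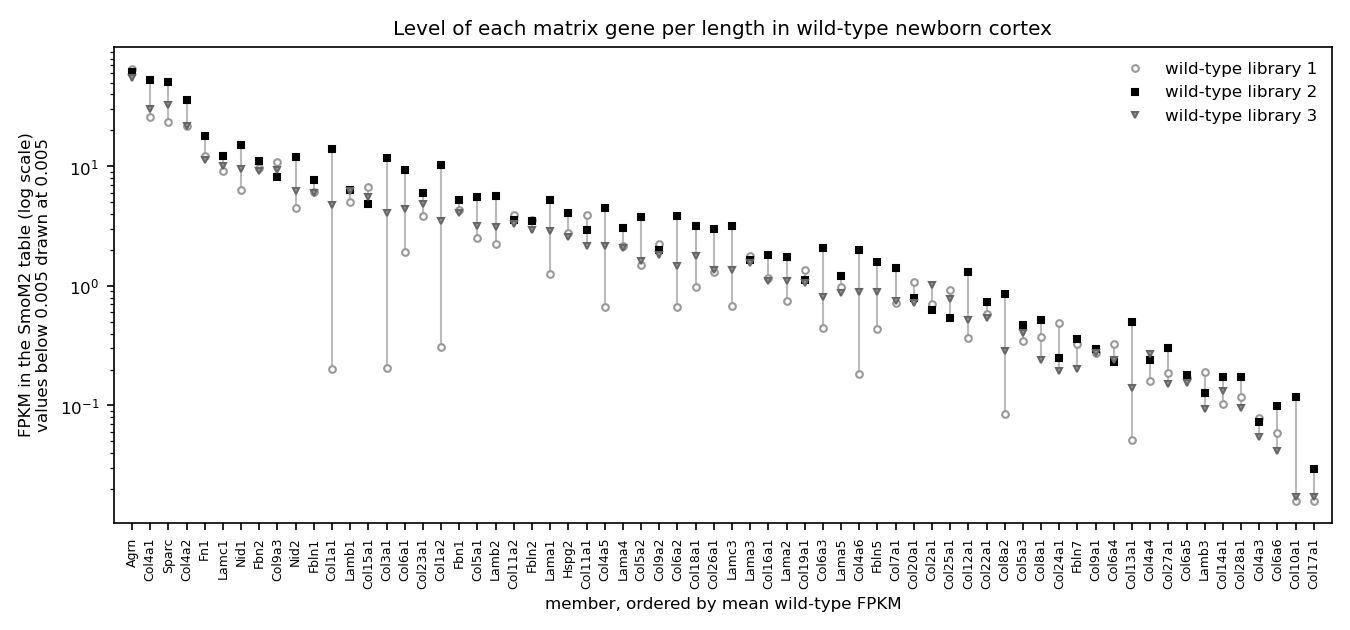
Level of the matrix genes reported here in FPKM (log axis, SmoM2 table), ordered by the wild-type mean. Each point is 1 of the 3 wild-type libraries and the grey line spans their range. Agrn is highest, and Col1a1, Col1a2 and Col3a1 show long lines because wild-type library 1 lies far below libraries 2 and 3.

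Col4a1 and Col4a2 lie head to head on chromosome 8 and are transcribed in opposite directions, Col4a1 from 11198423 to 11312826 and Col4a2 from 11312805 to 11449287. Their first exons overlap by 22 bases, shown here because both chains start within this stretch. The sequence is that of RefSeq on GRCm38.p6, the GC box GGGCGG is in capitals, and the plus strand is given.
shared start (chr8:11312805-11312826): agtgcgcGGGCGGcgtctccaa
The ratio of Col4a1 to Col4a2 FPKM stayed between 1.18 and 1.45 over all libraries of both tables, while Col4a1 itself ranged from 190 to 664 CPM.

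The largest differences among these genes were between libraries of 1 group. Col1a1, a chain of collagen I, the main collagen of fibroblasts, had 1.45, 95.1 and 33.9 CPM in wild-type libraries 1, 2 and 3, a 65.5-fold range. It had 3.71, 16.3 and 237 CPM in ShhN IUE libraries 1, 2 and 3, and 95.6, 42.9 and 66.2 CPM in the SmoM2 libraries. Wild-type library 2 and ShhN IUE library 3 were thus high, wild-type library 1 and ShhN IUE libraries 1 and 2 were low, and the SmoM2 libraries lay close together. Col3a1, the collagen III chain, ran alike, with 2.28, 124 and 44.7 CPM in wild type, 5.85, 4.33 and 249 CPM in ShhN IUE and 108, 54.1 and 81.3 CPM in SmoM2. Wild-type library 2 was the highest and library 1 the lowest for 29 of the 64 genes tested (45.3%), against 15.4% of all genes tested in the ShhN IUE table. ShhN IUE library 3 was the highest of its group for 54 of the 64 (84.4%), against 39.4% of all genes. That library also had the most counts of Shh (455, against 51 and 52 in libraries 1 and 2). The hedgehog pathway genes Gli1 (1100, against 512 and 466) and Ptch1 (4813, against 2622 and 1935) were highest there too. Their part in the levels of the matrix genes in this library was not tested.

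Within each group, the sum of meningeal fibroblast markers was highest in the library where Col1a1 and Col3a1 were highest. The summed level of 16 such markers was 148, 782 and 312 CPM in wild-type libraries 1, 2 and 3, and 172, 183 and 564 CPM in ShhN IUE libraries 1, 2 and 3. In the SmoM2 table the sum was 437, 313 and 363 CPM in SmoM2, against 135, 634 and 292 CPM in the same wild-type libraries. Pdgfra, which oligodendrocyte precursors also express, made up much of the low sums. The other 15 markers summed to 61.3, 666 and 222 CPM in wild type and 50.9, 64.9 and 430 CPM in ShhN IUE, and in the SmoM2 table to 302, 177 and 221 CPM in SmoM2 and 47.9, 517 and 201 CPM in wild type. Wild-type library 2 and ShhN IUE library 3 held the highest sums of their groups either way. Across groups the order differed. The sum was lower in ShhN IUE library 3 than in wild-type library 2, while Col1a1 and Col3a1 were higher. Aldh1a2, a retinoic acid synthesis enzyme of the meninges, was at 0 in wild-type library 1 and in ShhN IUE libraries 1 and 2, at 25.9 and 7.13 CPM in the other wild-type libraries, at 16.8 CPM in ShhN IUE library 3 and at 6.97 to 18.3 CPM in SmoM2. Of the 16 markers, 0 rose and 1 fell in ShhN IUE, and 1 (Pdgfra) rose and 1 fell in SmoM2. The shares that changed were 6.25% and 12.5%, against 33.3% and 18.9% of all genes. Endothelial markers (14 genes) summed to 320 to 518 CPM in ShhN IUE, 356 to 386 CPM in SmoM2 and 281 to 453 CPM in wild type. Markers of mural cells, the pericytes and smooth muscle of the vessel wall (12 genes), summed to 248 to 443 CPM in ShhN IUE, 269 to 292 CPM in SmoM2 and 203 to 319 CPM in wild type. Of the 12, 4 rose and 0 fell in ShhN IUE, so that 33.3% changed, the same as the 33.3% of all genes. What the meningeal share of a dissection contributes to each value was not tested, and in bulk tissue fewer cells of a type and less RNA per cell cannot be told apart.

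**Figure D2:**
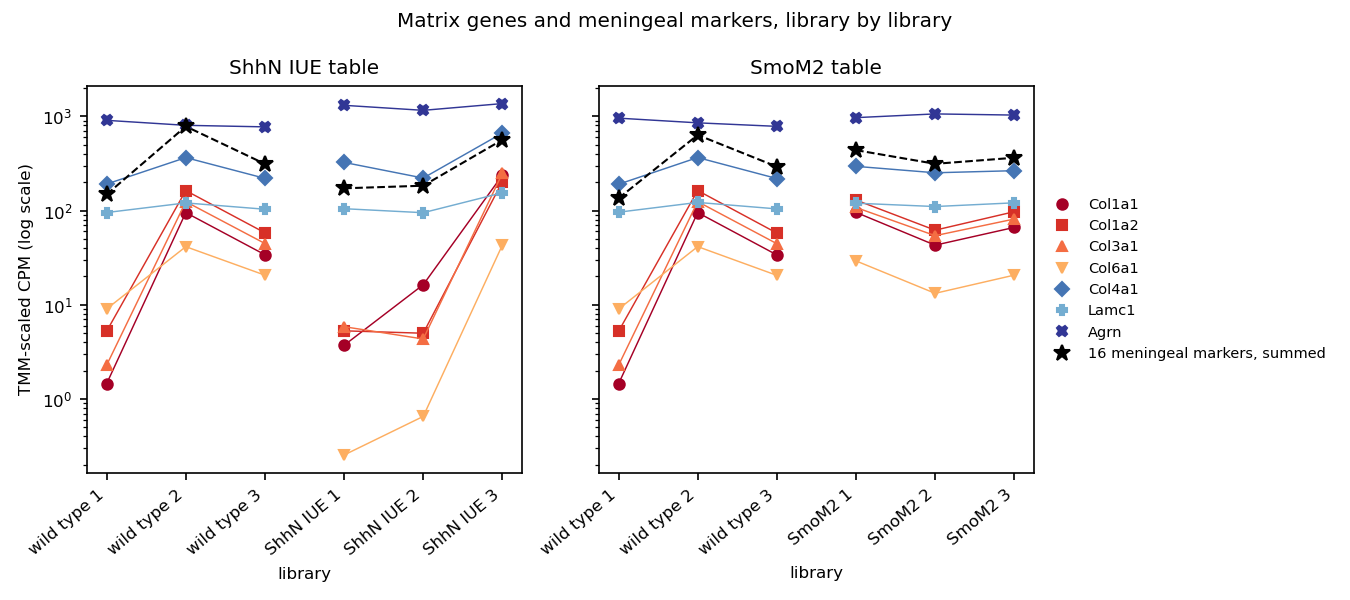
Levels of 7 matrix genes and the summed level of 16 meningeal fibroblast markers (black stars) in each library, in CPM scaled by the trimmed mean of M values (TMM) on a log axis, with the ShhN IUE table on the left and the SmoM2 table on the right; lines only join the libraries of a group, which have no order. Within each group Col1a1, Col1a2, Col3a1 and Col6a1 are highest in the library where the stars are highest. Col6a1 is lower in ShhN IUE libraries 1 and 2 than in wild-type library 1, where the stars are similar. Agrn and Lamc1 vary less within a group, Lamc1 by up to 1.63-fold in ShhN IUE.

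Against wild type, 8 of the 64 genes tested rose in ShhN IUE and 9 fell, by the quasi-likelihood test of edgeR at a Benjamini-Hochberg adjusted p under 0.05. Of all 16180 genes tested there, 16.1% rose and 17.2% fell. That is 26.6% of the matrix genes, below the 33.3% of all genes that changed. In SmoM2, 6 rose and 10 fell, which is 25% of 64, against 9.59% of all 16485 genes tested that rose, 9.29% that fell and 18.9% that changed in either direction. The median log2 fold change was 0.11 in ShhN IUE and -0.02 in SmoM2, beside -0.0038 and -0.0072 for all genes tested. In SmoM2, 12 rose without wild-type library 2, where 9.51% of all genes rose. Without SmoM2 library 1 or 2, 6 fell, where 4.61% and 4.7% of all genes fell. Groups did not overlap for 19 of the 64 in ShhN IUE and 24 in SmoM2, against 49.4% and 40.1% of all genes. Col10a1, Col6a6 and Col17a1 had too few counts to be tested against wild type. Both comparisons share their wild-type libraries, so their values are given side by side and are not independent. In the authors' deposited table of calls, 6 of the 67 were marked up and 6 down for ShhN IUE, and 4 up and 7 down for SmoM2. Of all genes in those tables, 5.16% were marked up and 5.01% down for ShhN IUE, and 3.03% up and 3.08% down for SmoM2.

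**Figure D3:**
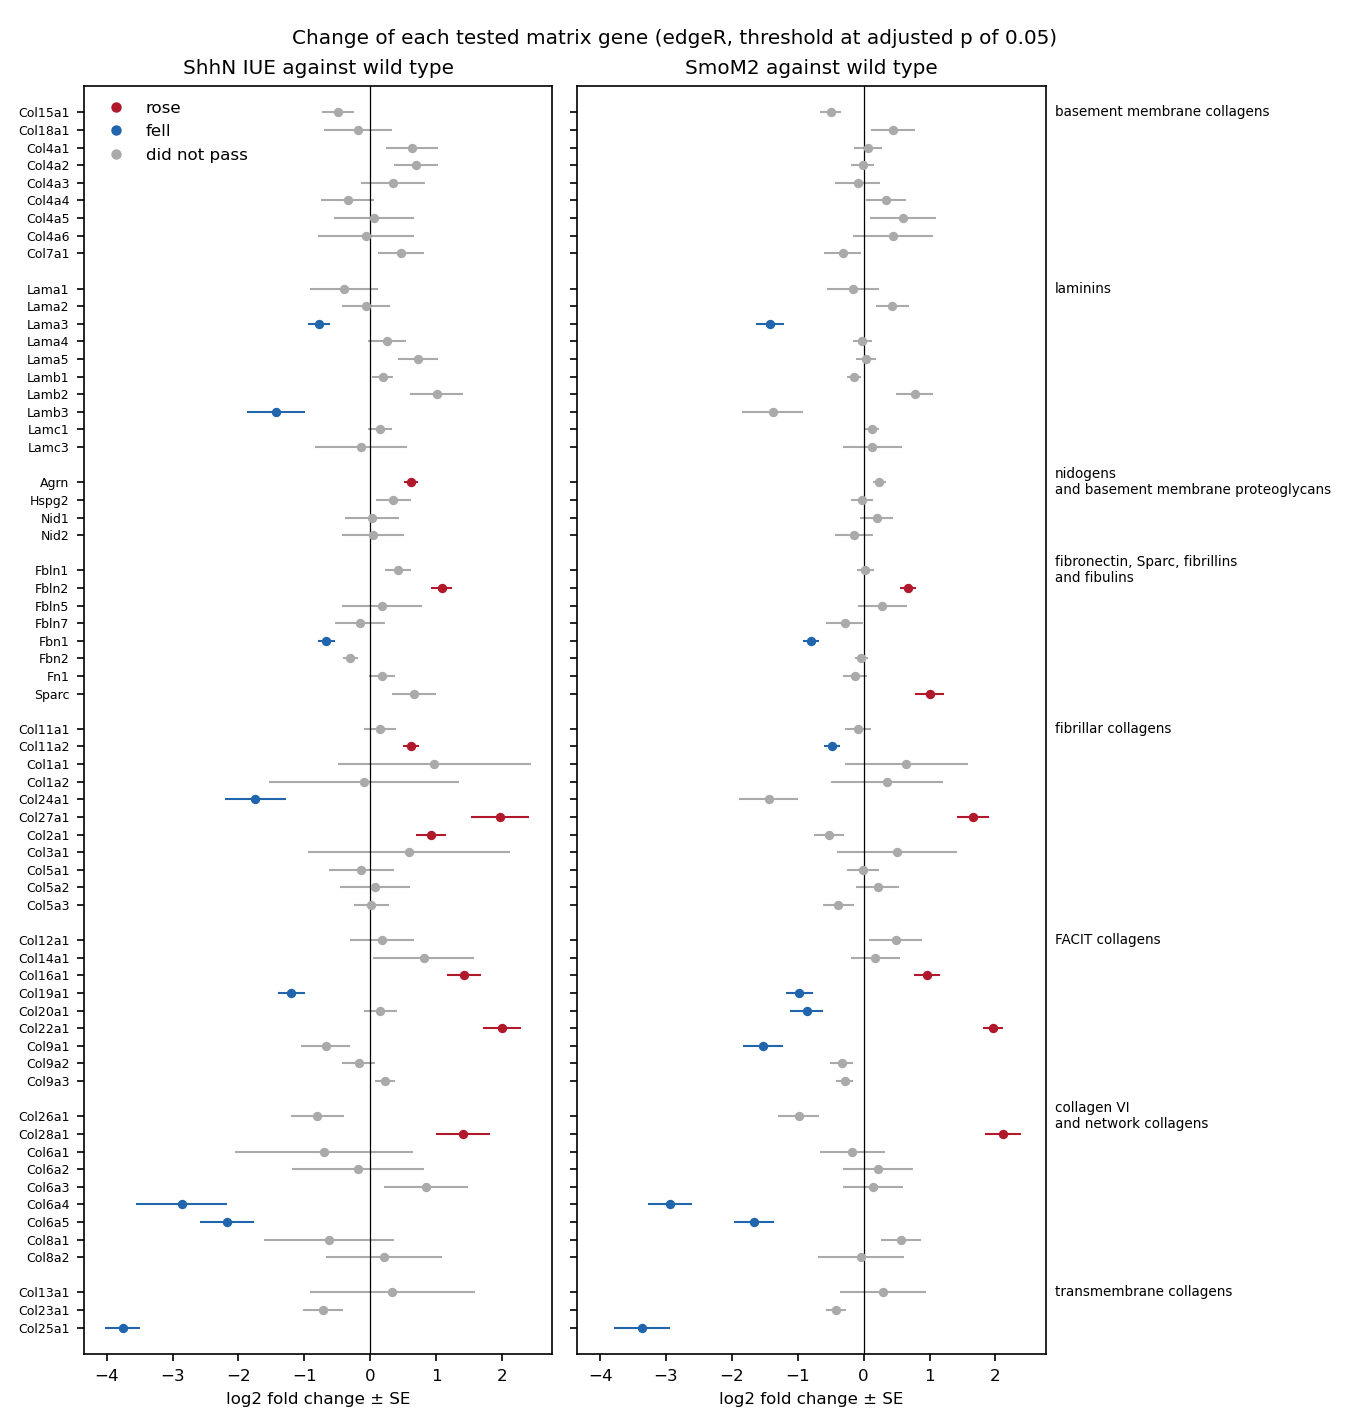
Log2 fold change against wild type (point) with its standard error (bar) for the tested matrix genes reported here, grouped by role, in ShhN IUE on the left and SmoM2 on the right. Red genes rose, blue genes fell and grey genes did not pass; no collagen of the basement membrane group is coloured, and the bars of Col1a1, Col1a2, Col3a1 and Col6a1 are the widest in ShhN IUE.

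Most genes of the basement membrane core, Agrn apart, did not pass the test as RNA. Of its 9 collagens, which besides collagen IV include collagens VII, XV and XVIII, 0 passed in either comparison, also at an unadjusted p under 0.05 in ShhN IUE, while 1 fell at that level in SmoM2. Col4a1 had 324, 221 and 664 CPM in ShhN IUE, 191, 365 and 220 CPM in wild type and 294, 252 and 265 CPM in SmoM2. The groups overlapped, and the log2 fold change was 0.64 ± 0.40 (SE, n = 3 per group, adjusted p = 0.243) in ShhN IUE and 0.07 ± 0.22 (adjusted p = 0.860) in SmoM2. Col4a2 was at 0.70 ± 0.34 (adjusted p = 0.142) and -0.02 ± 0.18 (adjusted p = 0.958). Without ShhN IUE library 2, Col4a2 passed in ShhN IUE (0.99, adjusted p = 0.0382), and without wild-type library 2, Col4a1 passed in SmoM2 (0.40, adjusted p = 0.0430).

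The nidogens, perlecan (Hspg2) and the laminin chains Lama1, Lama2, Lama5, Lamb1, Lamb2 and Lamc1 did not pass the edgeR test with all libraries. Nid1 had 48.6, 38.6 and 106 CPM in ShhN IUE, 39.6, 90.4 and 59.1 CPM in wild type and 76.6, 65.0 and 74.8 CPM in SmoM2. Its log2 fold change was 0.03 ± 0.41 (adjusted p = 0.964) and 0.20 ± 0.26 (adjusted p = 0.634), that of Nid2 0.04 ± 0.47 and -0.14 ± 0.29, and that of Hspg2 0.35 ± 0.27 and -0.02 ± 0.17. Lamb1 and Lamc1, the beta and gamma chains of the common embryonic laminins, had log2 fold changes of 0.19 ± 0.16 and 0.15 ± 0.19 in ShhN IUE and -0.14 ± 0.11 and 0.12 ± 0.11 in SmoM2. The alpha chains Lama1, prominent in the pia, and Lama2 were at -0.40 ± 0.52 and -0.06 ± 0.36 in ShhN IUE and -0.16 ± 0.39 and 0.44 ± 0.24 in SmoM2. Lama2 passed in SmoM2 without wild-type library 2 (0.77, adjusted p = 0.0248). Nid2 and Lama2 share 437 and 631 exon bases with genes on the opposite strand.

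Lamb2, a laminin beta chain of mature vessels and synapses, and Lama5 are named after their values were seen. Lamb2 had 38.7, 41.0 and 89.8 CPM in ShhN IUE, 17.8, 42.4 and 23.9 CPM in wild type of that table and 52.4, 41.4 and 47.4 CPM in SmoM2. Wild-type library 2 was high and overlapped both interventions, in SmoM2 by a difference under the rounding of these values. The log2 fold change was 1.01 ± 0.40 (adjusted p = 0.0862) in ShhN IUE and 0.77 ± 0.28 (adjusted p = 0.0869) in SmoM2. Without wild-type library 2, Lamb2 passed in both (1.44, adjusted p = 0.0385, and 1.19, adjusted p = 0.00625), and it passed in SmoM2 with DESeq2 (adjusted p = 0.0171). The authors' deposited table marks Lamb2 up in ShhN IUE. Lama5, an alpha chain of vessel laminins, was at 0.72 ± 0.30 (adjusted p = 0.0962) in ShhN IUE, where it passed with DESeq2 (adjusted p = 0.0452) and when ShhN IUE library 2 was left out (0.95, adjusted p = 0.0431), and at 0.04 ± 0.15 in SmoM2.

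Agrn was the member of this core that rose. Agrin is the proteoglycan known for clustering receptors at the nerve-muscle synapse, and the brain makes it in neurons and at vessels. Agrn had 1308, 1157 and 1365 CPM in ShhN IUE against 906, 802 and 773 CPM in wild type, and 968, 1061 and 1031 CPM in SmoM2 against 956, 853 and 782 CPM in wild type of the same table. Every ShhN IUE library and every SmoM2 library lay above the wild-type libraries of its table. The rise in ShhN IUE was 1.54-fold (log2 0.63 ± 0.11, adjusted p = 0.00412), and it passed under each of 11 alternatives. In SmoM2 the log2 fold change was 0.24 ± 0.10 (adjusted p = 0.118), and without wild-type library 1 it passed (0.32, adjusted p = 0.0456).

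Lama3, an alpha chain of epithelial laminins such as those of skin, fell in both interventions, and Lamb3, a beta chain of the same laminins, passed in ShhN IUE. Lama3 had 11.7, 8.72 and 11.3 CPM in ShhN IUE, 19.7, 17.5 and 17.1 CPM in wild type, and 4.66, 7.29 and 8.24 CPM in SmoM2. Its log2 fold change was -0.77 ± 0.17 (adjusted p = 0.0113) in ShhN IUE and -1.43 ± 0.22 (adjusted p = 0.00370) in SmoM2. Neither group overlapped wild type. Lamb3 had 5 to 9 counts in ShhN IUE and 15 to 30 in wild type, with a log2 fold change of -1.43 ± 0.44 (adjusted p = 0.0371). In SmoM2 it was at -1.38 ± 0.46 (adjusted p = 0.0728). The call of Lamb3 in ShhN IUE was lost with its library 1 (adjusted p = 0.129) or 2 (0.109) left out, without wild-type library 1 (0.119), 2 (0.0634) or 3 (0.0562), and with DESeq2 (0.0975). Lama3, on chromosome 18 from 12333819 to 12583013, shares 197 exon bases with an antisense gene, and the handling of strand in counting is not stated in the labels.

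Col25a1 fell most of all 64 genes in both comparisons. It encodes a transmembrane collagen made by neurons, and lies on chromosome 3 from 130131501 to 130599877. Its level was 0.712, 1.13 and 1.19 CPM in ShhN IUE against 15.5, 12.2 and 13.3 CPM in wild type, 13.5-fold lower (log2 -3.76 ± 0.26, adjusted p = 0.000401). In SmoM2 it was 0.404, 1.40 and 1.27 CPM against 13.3, 7.32 and 11.1 CPM, 10.3-fold lower (log2 -3.37 ± 0.42, adjusted p = 0.00180). Every intervention library was thus far below every wild-type library. Quantification of the same wild-type libraries differed between the tables, at 808 and 620 summed counts. Markers of striatal projection neurons fell beside it: their summed level (11 genes) was 77.2 to 97.7 CPM in ShhN IUE, 89.2 to 92.5 CPM in SmoM2 and 244 to 364 CPM in wild type, and 10 of the 11 fell in each comparison. Of the 10 pyramidal neuron markers 4 fell in ShhN IUE and 6 in SmoM2. The shares that changed were 40% and 60%, and 90.9% in each for the striatal markers, against 33.3% and 18.9% of all genes. The part of these neurons in the fall of Col25a1 was not tested. The other transmembrane collagens tested, Col13a1 and Col23a1, did not pass the edgeR test with all libraries. Col23a1 was at -0.71 ± 0.30 in ShhN IUE (adjusted p = 0.101), where it passed with DESeq2 (adjusted p = 0.0434), when ShhN IUE library 3 was left out (-1.15, adjusted p = 0.00684) and when wild-type library 2 was left out with it (-1.01, adjusted p = 0.0175). In SmoM2 it was at -0.42 ± 0.15 (adjusted p = 0.0899) and passed without wild-type library 1 (-0.55, adjusted p = 0.0282).

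Among chains of collagen VI, 2 rare chains fell in both interventions. Col6a4 and Col6a5, neighbours on chromosome 9 that encode alternative chains, lie from 105989454 to 106096783 and from 105856070 to 105960643. Col6a4 had 7, 11 and 0 counts in ShhN IUE, 62, 46 and 41 in wild type and 9, 10 and 6 in SmoM2. Col6a5 had 8, 3 and 9 counts in ShhN IUE, 35, 39 and 30 in wild type and 11, 13 and 19 in SmoM2. The groups did not overlap. The log2 fold change of Col6a4 was -2.86 ± 0.70 (adjusted p = 0.0164) in ShhN IUE and -2.94 ± 0.33 (adjusted p = 0.00115) in SmoM2, and that of Col6a5 was -2.17 ± 0.41 (adjusted p = 0.00653) and -1.67 ± 0.30 (adjusted p = 0.00730). In ShhN IUE, Col6a4 missed the threshold without library 1 (adjusted p = 0.0596) and was at -3.67 without library 2. Without wild-type library 1 it lay just at the threshold and did not pass.

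The common chains Col6a1, Col6a2 and Col6a3, singled out after their values were seen, differed between libraries of 1 group instead. Each was highest in wild-type library 2, ShhN IUE library 3 and SmoM2 library 1, as were the meningeal markers. Col6a1 had 0.254, 0.653 and 43.1 CPM in ShhN IUE, 9.02, 41.3 and 20.6 CPM in wild type and 29.2, 13.2 and 20.6 CPM in SmoM2. Across groups Col6a1 did not follow those markers, as ShhN IUE libraries 1 and 2 lay below wild-type library 1. The 15 markers other than Pdgfra were at 50.9 and 64.9 CPM there, and at 61.3 CPM in wild-type library 1. With all libraries the log2 fold change of Col6a1 in ShhN IUE was -0.70 ± 1.35 (adjusted p = 0.717). Without ShhN IUE library 3 it was -5.71 (adjusted p = 0.00411), and without that library and wild-type library 2, the highest of their groups in meningeal markers, it was -5.03 (adjusted p = 0.00608). The parts of meningeal content and of the higher Shh, Gli1 and Ptch1 counts of ShhN IUE library 3 in the level of Col6a1 were not tested. Col6a2 and Col8a1, a chain of the network collagen VIII, also fell without those libraries (-1.64, adjusted p = 0.0361, and -3.00, adjusted p = 0.0313). In all, leaving out both libraries gave 7 matrix genes that rose and 11 that fell in ShhN IUE. Of all genes tested in that fit, 9.56% rose and 10.6% fell. Col28a1, which encodes a short collagen with von Willebrand A domains, rose from 0.588 ± 0.267 to 1.60 ± 0.350 CPM in ShhN IUE (adjusted p = 0.0310) and from 0.659 ± 0.189 to 2.91 ± 0.149 CPM in SmoM2 (adjusted p = 0.00213). Its call in ShhN IUE was lost without any 1 of ShhN IUE libraries 1, 2 or 3 or wild-type library 1 or 3 (adjusted p of 0.0569 to 0.0867).

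A further 3 collagens, of moderate level, rose in both interventions. Col22a1 and Col16a1 encode FACIT collagens, which bind to the surface of fibrils, and Col27a1 encodes a fibrillar collagen of cartilage. Col22a1 had 15.4, 32.9 and 22.9 CPM in ShhN IUE and 22.2, 22.9 and 23.8 CPM in SmoM2, against 5.70, 6.86 and 5.16 CPM in wild type of the first table. The log2 fold change was 2.00 ± 0.28 in ShhN IUE (adjusted p = 0.00209) and 1.96 ± 0.15 in SmoM2 (3.88-fold, adjusted p = 0.000280). Col27a1 had 11.2, 8.13 and 24.4 CPM in ShhN IUE, 11.7, 12.1 and 10.8 CPM in SmoM2 and 3.27, 5.13 and 2.69 CPM in wild type. Its log2 fold change was 1.97 ± 0.44 (adjusted p = 0.0116) and 1.66 ± 0.25 (adjusted p = 0.00344). Col16a1 had 29.3, 28.4 and 46.9 CPM in ShhN IUE, 26.1, 21.7 and 28.6 CPM in SmoM2 and 11.4, 16.9 and 10.6 CPM in wild type. Its log2 fold change was 1.42 ± 0.25 (adjusted p = 0.00517) and 0.96 ± 0.20 (adjusted p = 0.0134), the latter lost without SmoM2 library 1 (adjusted p = 0.0510) or 3 (0.0622). In each of these genes every intervention library was above every wild-type library. Radial glia markers moved the same way: their summed level (11 genes) was 1959 to 2282 CPM in ShhN IUE, 2199 to 2511 CPM in SmoM2 and 1392 to 1899 CPM in wild type, with 6 and 5 of the 11 up. The shares that changed were 54.5% and 45.5%, against 33.3% and 18.9% of all genes. Microglial markers (9 genes) summed to 90.9 to 120 CPM in ShhN IUE, 91.8 to 119 CPM in SmoM2 and 52.9 to 92.6 CPM in wild type. Of the 9, 2 rose and 0 fell in each comparison (22.2%). The parts of radial glia, microglia and meningeal content in the rises of these collagens were not tested.

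The remaining FACIT and fibrillar calls were mostly falls. Col19a1, known from hippocampal interneurons, fell from 15.1 ± 2.11 to 6.59 ± 1.24 CPM in ShhN IUE (adjusted p = 0.00463) and from 9.39 ± 1.48 to 4.76 ± 0.847 CPM in SmoM2 (adjusted p = 0.0133). The second call was lost without SmoM2 library 1 (adjusted p = 0.0576) or 2 (0.0572). Its wild-type counts differed between the tables (898 and 559). Col24a1, a fibrillar collagen gene known in bone and cortex, had 0.508, 1.48 and 1.00 CPM in ShhN IUE against 4.88, 2.95 and 2.14 CPM in wild type (log2 -1.74 ± 0.46, adjusted p = 0.0229), and was at -1.44 ± 0.44 in SmoM2 (adjusted p = 0.0556). With library 1 of either group or ShhN IUE library 3 left out it missed the threshold (adjusted p of 0.0519 to 0.0728), and without wild-type library 3 Col24a1 passed in SmoM2 (-1.67, adjusted p = 0.0488). Col9a1, a chain of the cartilage FACIT collagen IX, fell in SmoM2 from 1.51 ± 0.0359 to 0.516 ± 0.158 CPM (log2 -1.53 ± 0.30, adjusted p = 0.0112), and was at -0.68 ± 0.37 in ShhN IUE. It missed the threshold without SmoM2 library 1 (adjusted p = 0.0524) or 2 (0.0526). Col1a1 and Col3a1 did not pass in either comparison, with SEs of 1.47 and 1.54 in ShhN IUE that exceed the log2 fold changes themselves (0.97 and 0.59).

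Of the glycoproteins, Fbln2 rose and Fbn1 fell in both interventions. Fibulin-2 is found in basement membranes and elastic fibres. Fbln2 had 67.3, 62.7 and 68.6 CPM in ShhN IUE against 36.0, 33.3 and 24.2 CPM in wild type, and 52.2, 46.6 and 59.2 CPM in SmoM2 against 36.3, 33.7 and 29.4 CPM. The log2 fold change was 1.09 ± 0.16 (adjusted p = 0.00239) and 0.67 ± 0.12 (adjusted p = 0.00848), with no overlap of the groups. Fibrillin-1 forms the microfibrils of connective tissue. Fbn1 had 42.6, 39.2 and 47.1 CPM in ShhN IUE, 66.1, 76.7 and 61.4 CPM in wild type and 36.3, 37.8 and 42.7 CPM in SmoM2, a fall of 1.58-fold (log2 -0.66 ± 0.13, adjusted p = 0.00725) and 1.74-fold (log2 -0.80 ± 0.12, adjusted p = 0.00342). Both calls held under all alternatives run for them (11 for ShhN IUE, 10 for SmoM2). Fbn1 shares 2442 exon bases with Gm9913 on the opposite strand, so reads of the 2 genes may not be separable. Fn1 was at 0.18 ± 0.20 (adjusted p = 0.514) and -0.13 ± 0.18 (adjusted p = 0.641).

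Sparc rose in SmoM2 to the level of Agrn per length. It had 346, 304 and 306 CPM in SmoM2, above all of the wild-type values of 108, 222 and 147 CPM, a 2.00-fold rise (log2 1.00 ± 0.23, adjusted p = 0.0186). The call was lost without SmoM2 library 1 (adjusted p = 0.0675) or 3 (0.0545) or wild-type library 3 (0.0627). In ShhN IUE it had 188, 184 and 378 CPM, which overlapped wild type (log2 0.67 ± 0.34, adjusted p = 0.158). Without ShhN IUE library 3 and wild-type library 2 it passed there too (0.57, adjusted p = 0.0487).

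**Figure D4:**
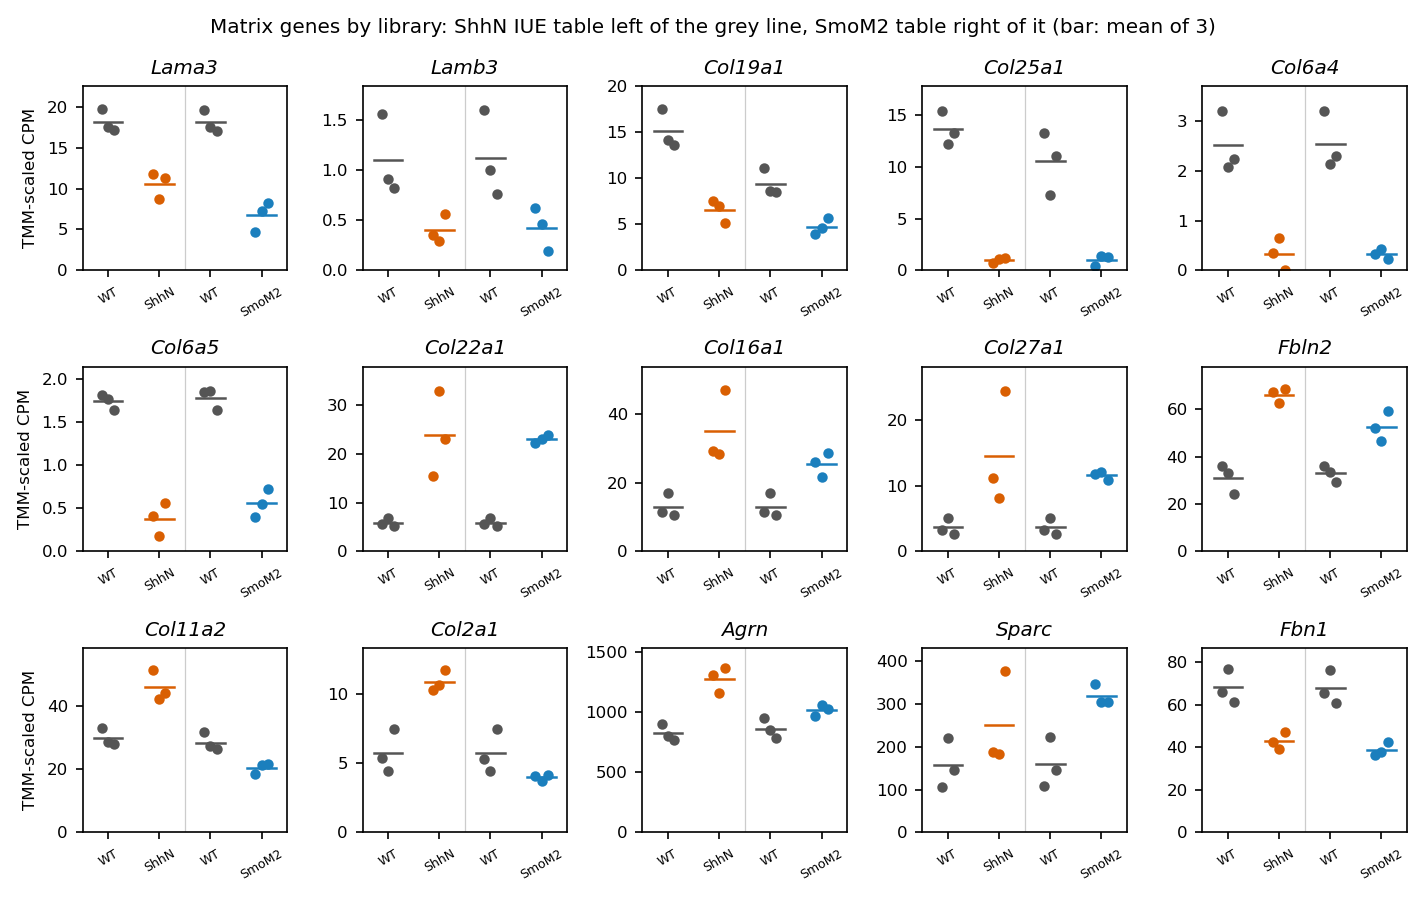
CPM (TMM-scaled, axes from 0) of 15 matrix genes in each library, with the mean of 3 as a bar. Wild type and ShhN IUE of one table stand left of the grey line, wild type and SmoM2 of the other right of it; Col11a2 and Col2a1 are the genes whose ShhN IUE points lie above wild type while the SmoM2 points lie below it.

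The difference between SmoM2 and ShhN IUE was tested directly over the 57 genes whose wild-type counts agree between the tables, of which 55 passed the filter on low counts. With edgeR, 4 were lower in SmoM2 and 0 were higher, where 8.07% of all 12349 genes tested were lower and 8.45% higher. At an unadjusted p under 0.05, 11 were lower and 1 was higher, but the share of all genes at that level was not computed. DESeq2 called 6 lower and 0 higher, against 10.3% of all genes in each direction. Without ShhN IUE library 2, 9 were lower, against 7.08% of all genes. Without library 1 of ShhN IUE or of SmoM2, 2 were lower, against 3.03% and 3.82% of all genes. The median was -0.09, beside -0.0057 for all genes. Lama3, at -0.67 ± 0.21 (adjusted p = 0.0538), passed with DESeq2 (adjusted p = 0.0174) and without ShhN IUE library 2 (-0.79, adjusted p = 0.0422).

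The 2 strongest differences were in cartilage collagens that ShhN IUE raised. Col11a2 had 51.4, 42.4 and 44.1 CPM in ShhN IUE against 33.1, 28.6 and 28.1 CPM in wild type, and 18.4, 21.3 and 21.5 CPM in SmoM2 against 31.7, 27.3 and 26.3 CPM. It rose in ShhN IUE (log2 0.62 ± 0.13, adjusted p = 0.00855) and fell in SmoM2 (-0.47 ± 0.12, adjusted p = 0.0291), with no overlap in either. The difference between the interventions was -1.18 ± 0.12 (adjusted p = 0.000418). Col2a1 had 10.3, 10.7 and 11.7 CPM in ShhN IUE, 5.34, 4.45 and 7.47 CPM in wild type and 4.07, 3.73 and 4.14 CPM in SmoM2. It rose in ShhN IUE (0.92 ± 0.23, adjusted p = 0.0180), was at -0.53 ± 0.23 in SmoM2 (adjusted p = 0.147), and differed between them by -1.46 ± 0.20 (adjusted p = 0.00186). The differences of both genes passed under every alternative run for them. Col11a2 was not compared at the tolerance of 0.05. Its wild-type counts were higher in the ShhN IUE table by 0.071 on the log2 scale. The fall of Col11a2 against wild type in SmoM2 was lost without any 1 SmoM2 library (adjusted p of 0.0781 to 0.103) and without wild-type library 1 (0.0631). The rises of Col11a2 and Col2a1 in ShhN IUE missed the threshold with ShhN IUE library 3 and wild-type library 2 both left out (adjusted p = 0.0532 and 0.0869).

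Col20a1, a FACIT collagen gene, had 4.47, 4.09 and 4.51 CPM in ShhN IUE, 5.03, 3.45 and 3.30 CPM in wild type of that table and 1.87, 2.29 and 2.30 CPM in SmoM2. It fell in SmoM2 against wild type (-0.87 ± 0.24, adjusted p = 0.0408) and was lower in SmoM2 than in ShhN IUE (-1.03 ± 0.23, adjusted p = 0.0132). The first call was lost without SmoM2 library 1 (adjusted p = 0.134), 2 (0.102) or 3 (0.117) or wild-type library 1 (0.0872), and the second without ShhN IUE library 1 (0.0519) or SmoM2 library 1 (0.0556). Agrn was 1.26-fold lower in SmoM2 than in ShhN IUE (-0.34 ± 0.09, adjusted p = 0.0316), a call that ended without ShhN IUE library 1 (0.124) or 3 (0.0692) or SmoM2 library 1 (0.107), 2 (0.0727) or 3 (0.0945). For Col22a1 the difference was -0.06 ± 0.23 (adjusted p = 0.891) and for Fbn1 -0.15 ± 0.11 (adjusted p = 0.386). Without ShhN IUE library 3, 11 genes were higher in SmoM2, where 8.13% of all genes tested were higher. Among the 11 were Col1a2 (4.21, adjusted p = 0.0280), Col3a1 (3.97, adjusted p = 0.0417) and Col6a1 (5.54, adjusted p = 0.00268). Within each group these collagens were highest in the library with the highest meningeal sum. ShhN IUE library 3 also had the most Shh, Gli1 and Ptch1 counts of its group. The parts of meningeal content and of these counts in the 11 differences were not tested.

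The promoters of 49 of the 67 genes were found in RefSeq (GRCm38.p6) as windows from 250 bases before to 50 after the transcript start. Each was searched on both strands for 4 motifs. The GC box GGGCGG, which SP1 binds, was in 32 of the 49 (65.3%), against 38.2% of all genes with a promoter window. CCAAT was in 17 (34.7%, against 41.1%) and TATAAA in 5 (10.2%, against 15.7%). GACCACCCA, the motif of the hedgehog effectors of the GLI family, was in 0 of the 49 and in 0.289% of all genes with a window, which says only that these letters are not in the windows of the 49. The 250 bases before the start are given for 4 genes that changed, to show how unlike they are. Agrn rose in ShhN IUE, Col16a1 rose in both interventions, Col11a2 changed in opposite directions and Sparc rose in SmoM2. Each runs 5′ to 3′ in the direction of the gene, with GC boxes, CCAAT and TATAAA in capitals.
Agrn (chr4:156197489-156197738, minus strand): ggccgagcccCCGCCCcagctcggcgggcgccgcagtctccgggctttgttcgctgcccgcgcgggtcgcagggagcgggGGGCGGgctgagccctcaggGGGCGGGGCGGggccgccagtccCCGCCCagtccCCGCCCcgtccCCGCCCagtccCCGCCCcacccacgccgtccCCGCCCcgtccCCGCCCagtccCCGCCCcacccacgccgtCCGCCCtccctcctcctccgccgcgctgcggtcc
Col16a1 (chr4:130047590-130047839, plus strand): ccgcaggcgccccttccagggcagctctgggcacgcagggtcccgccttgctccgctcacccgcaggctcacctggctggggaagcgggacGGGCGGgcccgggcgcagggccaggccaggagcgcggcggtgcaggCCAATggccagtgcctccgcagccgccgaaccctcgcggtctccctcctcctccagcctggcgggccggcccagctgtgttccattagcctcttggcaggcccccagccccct
Col11a2 (chr17:34038888-34039137, plus strand): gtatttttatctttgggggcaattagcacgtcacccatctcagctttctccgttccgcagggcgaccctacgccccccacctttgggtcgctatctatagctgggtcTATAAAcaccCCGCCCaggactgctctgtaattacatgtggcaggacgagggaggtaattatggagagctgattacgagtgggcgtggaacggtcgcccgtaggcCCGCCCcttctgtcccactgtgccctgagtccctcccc
Sparc (chr11:55420081-55420330, minus strand): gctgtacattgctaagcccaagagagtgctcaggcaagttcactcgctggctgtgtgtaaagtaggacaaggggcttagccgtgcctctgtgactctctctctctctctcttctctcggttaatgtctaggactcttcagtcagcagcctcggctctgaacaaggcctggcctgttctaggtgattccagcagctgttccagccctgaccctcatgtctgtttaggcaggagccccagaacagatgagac
The Agrn stretch is 83.6% G and C and holds 12 matches to the GC box, overlapping ones counted. That of Col16a1 is 75.6% G and C, with 1 GC box and 1 CCAAT. That of Col11a2 holds 1 TATAAA and 2 GC boxes at 57.6% G and C, and its RefSeq start lies 299 bases from the start in the deposited tables. The Sparc stretch, at 54.0% G and C, holds 0 matches to the 4 motifs.

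Among genes that make, bind or cut the matrix, shares that changed are read against the 33.3% of all genes in ShhN IUE and the 18.9% in SmoM2. Of 27 collagen processing and crosslinking genes tested, 6 rose and 1 fell in ShhN IUE, and 3 rose and 4 fell in SmoM2, 25.9% in each. P4ha3, a subunit of prolyl 4-hydroxylase, which stabilises the collagen helix, rose from 6.39 ± 0.453 to 20.2 ± 4.30 CPM in ShhN IUE (log2 1.66 ± 0.20, adjusted p = 0.00135) and to 14.6 ± 1.52 CPM in SmoM2 (1.19 ± 0.15, adjusted p = 0.00201). Colgalt1, a collagen galactosyltransferase, rose by 0.33 ± 0.09 (adjusted p = 0.0222) and 0.45 ± 0.08 (adjusted p = 0.00684) on the log2 scale. Adamts2, which removes the amino-terminal propeptide of fibrillar collagens, fell from 43.2 ± 6.63 to 11.9 ± 2.20 CPM in ShhN IUE (-1.87 ± 0.18, adjusted p = 0.000798).

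Of 27 matrix receptors tested, 2 rose and 3 fell in ShhN IUE (18.5%), and 3 rose and 3 fell in SmoM2 (22.2%). Ddr1, a receptor tyrosine kinase for collagen, rose from 51.0 ± 7.39 to 181 ± 25.3 CPM in ShhN IUE (log2 1.83 ± 0.15, adjusted p = 0.000517) and from 53.6 ± 8.47 to 112 ± 9.81 CPM in SmoM2 (1.06 ± 0.13, adjusted p = 0.00180). Adgrg1 (GPR56), the adhesion receptor for collagen III at the pial surface, rose by 0.89 ± 0.14 (adjusted p = 0.00284) and 0.66 ± 0.12 (adjusted p = 0.00876). Cd44, the hyaluronan receptor, fell from 8.53 ± 2.65 to 3.19 ± 1.25 CPM in ShhN IUE (adjusted p = 0.0177) and from 6.11 ± 2.16 to 1.80 ± 0.296 CPM in SmoM2 (adjusted p = 0.00693). Of 20 matrix proteases and inhibitors tested, 3 rose and 4 fell in ShhN IUE and 2 rose and 5 fell in SmoM2, 35% in each. Timp2, an inhibitor of matrix metalloproteases, fell from a mean of 415 to 202 CPM in ShhN IUE (log2 -1.04 ± 0.09, adjusted p = 0.000571) and from 412 ± 16.2 to 288 ± 18.0 CPM in SmoM2 (-0.51 ± 0.08, adjusted p = 0.00416). Median log2 fold changes of the 3 lists were 0.28, 0.15 and -0.12 in ShhN IUE and 0.11, 0.13 and -0.24 in SmoM2, beside -0.0038 and -0.0072 for all genes.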

How the data were processed

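Bulk RNA sequencing of newborn cortex gave 9 libraries in 3 groups of 3, assigned from the sample titles. Nothing in the labels ties a sample to its own animal, so p-values reflect only the variation among these samples, which may be technical. The authors deposited 2 tables, one of ShhN IUE with wild type and one of SmoM2 with wild type, sharing the wild-type libraries. Per the file headers, the tables hold read counts and FPKM per gene and library, and q-values of the authors' own comparisons. The submitters' processing notes name the builds GRCm38.p4 and mm10 and the tools HISAT2, StringTie and edgeR. How strand and shared reads were handled is not stated in the labels. The deposited FPKM were used only for levels between genes.

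Deposited counts were tested in edgeR 4.0.16 (R 4.3.3) by its quasi-likelihood F test, with TMM scaling, the default expression filter by group and Benjamini-Hochberg adjustment over all genes tested (threshold 0.05). SE is the absolute log2 fold change divided by the square root of F. CPM are TMM-scaled counts per 1e+06. The tables quantify the wild-type libraries differently, so each group was tested within its own table. SmoM2 and ShhN IUE were compared in a fit of all 9 libraries over the 16195 genes (57 of the 67) whose summed wild-type counts, with 5 added, agree within 0.1 on the log2 scale, with wild-type counts averaged and rounded. In that comparison, a gene counted differently in the 2 tables only in intervention libraries would not be noticed. The 10 that do not agree, among them Col14a1, Col19a1, Col24a1, Col25a1, Col26a1, Col28a1, Col4a3, Col9a3 and Fn1, were not compared there. Values of 1 of the 67 genes are not reported here, though it is included in the counts.

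The matrix genes, the marker and pathway lists and the naming rule were chosen with earlier results of these data known. Genes named are those past the threshold against wild type with a mean of at least 1 CPM in a group, a fixed set of main basement membrane and matrix genes, and some of the 4 genes that lead each pathway list by adjusted p. Genes named outside it were chosen after their values were seen: Col1a2, Col6a1, Col6a2, Col6a3, Col8a1, Col13a1, Col23a1, Lama5 and Lamb2. The split of the meningeal sum by Pdgfra was also made then. Alternatives were RLE scaling, no filter, DESeq2 1.42.0, a block for the replicate number, each library left out in turn, other tolerances, a fit without wild type, and leaving out ShhN IUE library 3 with wild-type library 2, chosen after the data were seen. The functions were tested on simulated counts. Replicates differed by more than sampling noise (chi-square per degree of freedom 17.7 to 36.9). Gene coordinates are those of the tables. Exon overlaps are from GENCODE on GRCm38, whose gene start and end equal those of the tables for 60 of the 67 genes and differ for 7.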

Additional observations from a re-analysis of the deposited data

Results flagged for a closer look

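Matrix genes whose response differed between the interventions are given here, by the direct test of SmoM2 against ShhN IUE. The log2 difference was -1.18 for Col11a2, -1.46 for Col2a1, -1.03 for Col20a1 and -0.34 for Agrn, each lower in SmoM2 than in ShhN IUE in 3 of 3 libraries. The adjusted p-values (edgeR quasi-likelihood test) were 0.000418, 0.00186, 0.0132 and 0.0316, and those of Col20a1 and Agrn did not pass under all alternatives. The counts of the 2 interventions come from separate tables, and a difference in how the tables were made cannot be told apart from one between the groups.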

How the results depend on the processing

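For matrix genes against wild type, leaving out 1 library at a time gave 7 to 10 that rose and 6 to 13 that fell in ShhN IUE, and 4 to 12 that rose (12 without wild-type library 2) and 6 to 11 that fell in SmoM2. Of all genes tested in these fits, 9.49% to 13.8% rose and 10.2% to 13.9% fell in ShhN IUE. In SmoM2, 4.38% to 9.51% rose and 3.59% to 8.4% fell. For SmoM2 against ShhN IUE, leaving out 1 library gave 0 to 11 that were higher (11 without ShhN IUE library 3) and 2 to 9 that were lower (9 with ShhN IUE library 2 left out, 2 with library 1 of either group left out). Of all genes tested there, 3.84% to 10% were higher and 2.79% to 8.57% lower. A tolerance of 0.05, which left Col11a2 and Agrn out of the comparison, gave 2 lower, against 8.07% of all genes. The replicate number as a block gave 7 and 7 in ShhN IUE, 6 and 9 in SmoM2, and 0 and 3 between them. The shares of all genes with the block were 11.8% and 12.7%, 7.69% and 7.28%, and 6.49% and 5.64%. Same-numbered libraries had correlations of their deviations of 0.26, -0.32 and -0.11 in ShhN IUE and -0.08, -0.14 and 0.05 in SmoM2, so the numbers were not taken to pair the samples. DESeq2 gave 9 and 9, 7 and 13, and 0 and 6, where the shares of all genes were 17.5% and 18.4%, 10.9% and 11.1%, and 10.3% and 10.3%. Of the named genes that passed, 11 of 17 in ShhN IUE, 10 of 16 in SmoM2 and 2 of 4 between them passed under every alternative run, and 0 changed sign. Col3a1, at -0.09 between the interventions, ranged from -0.64 to 3.97 with 1 library left out, and passed at the upper value, without ShhN IUE library 3. Of those that did not pass, 8 of 15, 8 of 16 and 9 of 22 changed sign under some alternative. The cause was not tested. Genes with fewer than about 30 counts in a library, among them Col6a4, Col6a5, Col28a1 and Lamb3, are limited by depth.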
